A study of Mus musculus with 20 samples.

Results

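The genes of 9 platelet surface receptor subunits and receptors, Itga2b, Itgb3, Gp1ba, Gp1bb, Gp9, Gp5, Gp6, Clec1b and Treml1, were followed in RNA sequencing libraries of whole mouse spleen. They were taken by gene name from a count table of 54532 genes, and all 9 names were found. The libraries compared mice bred on a gluten-free diet with control mice, all aged 4 weeks, and each library carries an ID that is a plain number or a number after the letter S. The groups were 4 gluten-free libraries with plain IDs (7, 8, 9 and 10), 8 control libraries with plain IDs (1 to 8), 5 gluten-free libraries with S IDs (S1, S3, S5, S6 and S8) and 3 control libraries with S IDs (S1, S2 and S6). The labels name no strain, sex or composition of either diet, and do not say what the letter S stands for, so plain and S libraries may be separate cohorts or batches, and the diets were also compared within each ID form. They also do not say that each ID is a separate mouse, and the p-values measure the spread between these libraries, which may be partly technical.

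Platelets are shed by megakaryocytes, which in mice are found in the spleen as well as the bone marrow, and both cells carry RNA for the receptors that start clotting at a wounded vessel. The GPIb-IX-V complex (Gp1ba, Gp1bb, Gp9 and Gp5) tethers platelets to von Willebrand factor, GPVI (Gp6) responds to collagen and CLEC-2 (Clec1b) to podoplanin. The integrin αIIbβ3 (Itga2b and Itgb3) then binds fibrinogen and joins platelets to each other, helped by TLT-1 (Treml1), a receptor held in the granules of resting platelets.

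Library totals ran from 13626021 to 24268237 counts. The least counted of the tested receptor genes in any library was Gp1ba, with 241 counts in control 8, and the most counted was Itgb3, with 13602 counts in gluten-free 9. All 8 megakaryocyte and platelet markers other than the receptor genes had counts in at least 1 of the 20 libraries. Pf4, Ppbp, Vwf and Tubb1, which are among them, had counts in each of the 4 groups. Pancreatic acinar genes, which mark tissue carried over at dissection, summed to 6792 CPM (read counts scaled to a common library size, here with TMM factors) in gluten-free S1, 624 CPM in control 4 and 6.08 to 22.04 CPM in the other libraries. Leaving out gluten-free S1 and control 4 together, an alternative chosen after seeing the data, changed 1 count of called receptor genes, that of S over plain among controls, given with it.

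RefSeq promoter windows were matched by symbol for 8 of the 9 genes, and Itgb3 was not matched. The 250 bases before each annotated start were searched on both strands for 2 short motifs. The first was GATAA, the core letters bound by factors such as GATA1 in megakaryocytes and red cell precursors. The second was GGAAG, the core letters bound by ETS factors such as FLI1. A match on the opposite strand is printed as its reverse complement. GATAA was found in 5 of the 8 windows and in 22.6% of all 32851 windows of that length, GGAAG in 6 of the 8 and in 64.1% of all, and both in 3 of the 8 and in 13.2% of all. The 3 windows with both belong to Gp1ba, Gp9 and Gp5, 3 partners in 1 complex, and are printed with that of Itga2b, which held GGAAG 4 times and no GATAA. Capitals mark the matches, none of which overlapped another, and a match is a description of letters, not a binding site. On GRCm38.p6, the windows lie at chr11:70638872-70639121 on the plus strand (Gp1ba), chr6:87777820-87778069 on the plus strand (Gp9), chr16:30310782-30311031 on the minus strand (Gp5) and chr11:102469884-102470133 on the minus strand (Itga2b). Each is written 5′ to 3′ on the strand of its gene.
Gp1ba: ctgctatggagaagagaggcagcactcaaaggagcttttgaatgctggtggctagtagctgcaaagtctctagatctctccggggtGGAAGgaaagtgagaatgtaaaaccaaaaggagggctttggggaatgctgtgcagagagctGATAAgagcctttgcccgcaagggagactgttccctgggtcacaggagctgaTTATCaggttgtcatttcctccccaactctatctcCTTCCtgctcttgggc
Gp9: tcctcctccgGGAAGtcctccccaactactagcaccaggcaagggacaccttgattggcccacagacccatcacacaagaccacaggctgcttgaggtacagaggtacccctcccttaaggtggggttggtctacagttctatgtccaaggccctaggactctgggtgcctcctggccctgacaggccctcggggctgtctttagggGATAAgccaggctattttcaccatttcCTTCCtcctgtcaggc
Gp5: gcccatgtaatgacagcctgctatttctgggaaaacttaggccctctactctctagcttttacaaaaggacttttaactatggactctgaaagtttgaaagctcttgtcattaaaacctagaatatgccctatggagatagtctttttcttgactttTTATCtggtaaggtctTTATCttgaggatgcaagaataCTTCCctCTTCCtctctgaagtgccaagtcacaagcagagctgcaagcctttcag
Itga2b: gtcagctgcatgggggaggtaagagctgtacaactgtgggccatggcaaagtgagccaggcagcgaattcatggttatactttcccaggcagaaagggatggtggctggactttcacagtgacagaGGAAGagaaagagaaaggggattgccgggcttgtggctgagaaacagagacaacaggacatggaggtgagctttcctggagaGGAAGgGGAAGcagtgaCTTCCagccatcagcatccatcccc
The matches nearest to the start were centred 14 bases before it in Gp1ba and in Gp9 (GGAAG in both), 46 bases before it in Gp5 and 23 bases before it in Itga2b. The nearest GATAA match lay 49 bases before the start in Gp1ba, 41 in Gp9 and 75 in Gp5. Gp6 and Clec1b held GATAA only, 1 and 3 times, and Gp1bb and Treml1 held GGAAG only, 2 times and once.

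Between diets, the receptor genes moved together, and their direction differed between the ID forms. Among plain IDs, the 8 receptor genes with enough counts to test were all called higher in gluten-free spleens, at an adjusted p under 0.05 in edgeR's quasi-likelihood test, where 17.5% of the 18362 genes tested were called higher. Their median log2 fold change was 1.00, against 0.03 over all genes tested. Among S IDs, 0 of 8 were called, where 0% of all genes were called in either direction, and the median log2 fold change of the receptor genes was -0.56, against 0.01 over all genes. In whole spleen, more or fewer megakaryocytes and platelets and more or less RNA in each of them cannot be told apart.

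**Figure D1:**
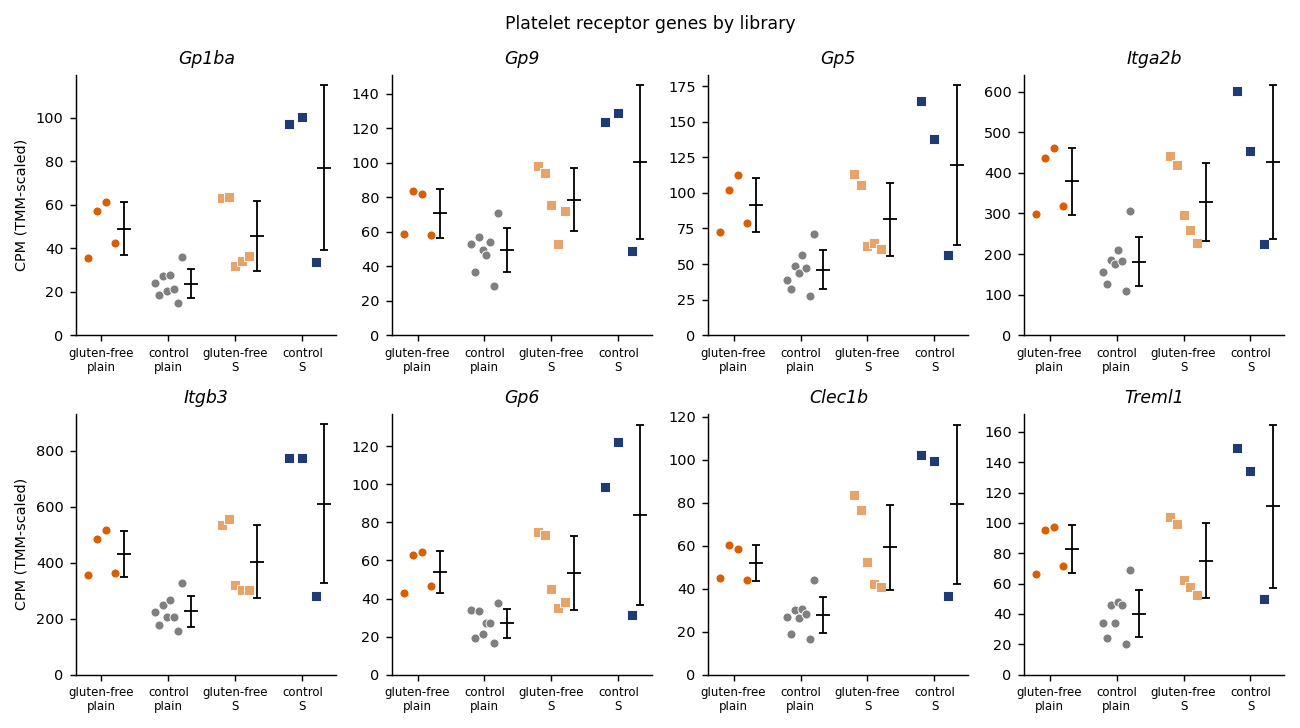
CPM (TMM-scaled) of the 8 tested receptor genes, 1 panel a gene, with 1 point a library in gluten-free plain, control plain, gluten-free S and control S libraries, and the mean with its SD beside each group. Control S1 and S2 stand highest or near it in every panel, while control S6 lies with the lower gluten-free S libraries.

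Gp1ba (ENSMUSG00000050675, chromosome 11, 70639122 to 70642036, plus strand, GRCm38) encodes the subunit that binds von Willebrand factor. It stood at 35.3, 57.1, 61.2 and 42.5 CPM in gluten-free plain libraries 7 to 10, against a lowest of 14.6, a median of 22.5 and a highest of 35.9 CPM in the 8 control plain libraries. It stood at 63.2, 63.4, 31.9, 33.9 and 36.5 CPM in gluten-free S1, S3, S5, S6 and S8, against 97.2, 100.5 and 33.5 CPM in control S1, S2 and S6. Control 5, the highest of the plain controls, lay just above gluten-free 7, and control S6 lay among the lower 3 gluten-free S libraries, so both pairs of groups overlapped. Within plain IDs the log2 fold change was 1.05 ± 0.19 (SE, adjusted p = 0.000415, edgeR), and within S IDs it was -0.75 ± 0.35 (SE, adjusted p = 0.908, edgeR).

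Gp9 (ENSMUSG00000030054, chromosome 6, 87778072 to 87779768, plus strand), which encodes the GPIX subunit needed for the complex to reach the surface, had the smallest diet difference of the tested receptor genes in both ID forms. It measured 58.6, 83.8, 82.1 and 57.9 CPM in gluten-free plain libraries 7 to 10, against a lowest of 28.3, a median of 51.2 and a highest of 70.7 CPM in control plain libraries. In S libraries it measured 97.9, 94.0, 75.7, 53.0 and 72.1 CPM in gluten-free S1, S3, S5, S6 and S8, against 123.9, 128.8 and 49.0 CPM in control S1, S2 and S6. Gluten-free 7 and 10 lay below control 5, and control S6 lay below each gluten-free S library. The log2 fold change was 0.51 ± 0.18 within plain IDs (SE, adjusted p = 0.0316, edgeR), and this call was lost without control 2 (adjusted p = 0.0522), gluten-free 8 (adjusted p = 0.114) or gluten-free 9 (adjusted p = 0.109) and when all 4 groups were fitted together (adjusted p = 0.0819). Within S IDs it was -0.36 ± 0.29 (SE, adjusted p = 0.956, edgeR).

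Gp5 (ENSMUSG00000047953, chromosome 16, 30307685 to 30310779, minus strand) encodes GPV, the subunit that thrombin cleaves. Its levels were 72.8, 101.7, 112.6 and 79.1 CPM in gluten-free plain libraries 7 to 10, against a lowest of 27.9, a median of 45.5 and a highest of 71.0 CPM in control plain libraries. They were 113.1, 105.4, 62.7, 64.9 and 60.8 CPM in gluten-free S1, S3, S5, S6 and S8, against 164.3, 137.6 and 56.2 CPM in control S1, S2 and S6. Every gluten-free plain library exceeded every control plain library, by a narrow margin over control 5, and the S groups overlapped through control S6. The log2 fold changes were 1.00 ± 0.19 within plain IDs (SE, adjusted p = 0.000623, edgeR) and -0.56 ± 0.33 within S IDs (SE, adjusted p = 0.913, edgeR).

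Gp1bb (ENSMUSG00000050761, chromosome 16, 18620317 to 18622403, minus strand), whose product is linked by disulphide bonds to GPIbα, was close to absent from the table and was removed by the filter on low counts. It had 3, 2, 6 and 0 counts in gluten-free plain libraries 7 to 10, and 1 count in control 6 with 0 in the other control plain libraries. The counts were 1, 8, 0, 1 and 2 in gluten-free S1, S3, S5, S6 and S8, and 3, 1 and 0 in control S1, S2 and S6. In all, 10 of the 20 libraries had 0 counts and the gene total was 28, so no fold is given. In GENCODE M21, 1938 of its 2087 exon bases (92.9%) lie on the same strand in exons of Sept5 or of Gm49601, which leaves 149 bases of its own. Sept5 had 713 counts over all libraries and Gm49601 had 187. How reads in shared exons were counted is not given in the sources used here, and the part of this in the low counts was not tested. Of the other 8 receptor genes, Clec1b shares 184 exon bases with Clec9a and 7 share none with another gene.

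Itga2b (ENSMUSG00000034664, chromosome 11, 102453297 to 102470122, minus strand) encodes the αIIb chain, the usual surface marker of the megakaryocyte lineage (CD41). It measured 298, 437, 461 and 319.5 CPM in gluten-free plain libraries 7 to 10, against a lowest of 109, a median of 178 and a highest of 305 CPM in control plain libraries. It measured 442, 419.5, 296, 259.9 and 228 CPM in gluten-free S1, S3, S5, S6 and S8, against 602, 454 and 224 CPM in control S1, S2 and S6. Control 5 lay just above gluten-free 7 and control S6 below each gluten-free S library, so both pairs of groups overlapped. Its log2 fold change within plain IDs, 1.07 ± 0.20 (SE, adjusted p = 0.000684, edgeR), was the highest of the 8 tested, and within S IDs it was -0.38 ± 0.30 (SE, adjusted p = 0.956, edgeR).

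Itgb3 (ENSMUSG00000020689, chromosome 11, 104608000 to 104670476, plus strand) encodes the β3 chain, which also pairs with the integrin αV in other cells. Its levels were 357, 483, 516 and 362 CPM in gluten-free plain libraries 7 to 10, against a lowest of 157, a median of 214 and a highest of 328 CPM in control plain libraries. In S libraries they were 534, 555, 321, 304 and 303 CPM in gluten-free S1, S3, S5, S6 and S8, against 775, 774 and 281 CPM in control S1, S2 and S6. The plain groups did not overlap, and the S groups did, again through control S6. The log2 fold changes were 0.93 ± 0.16 within plain IDs (SE, adjusted p = 0.000333, edgeR) and -0.60 ± 0.33 within S IDs (SE, adjusted p = 0.909, edgeR).

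Gp6 (ENSMUSG00000078810, chromosome 7, 4363965 to 4397744, minus strand) encodes the collagen receptor, which signals through the Fc receptor γ chain. It stood at 43.1, 62.8, 64.5 and 46.3 CPM in gluten-free plain libraries 7 to 10, against a lowest of 16.4, a median of 27.1 and a highest of 37.6 CPM in control plain libraries. In S libraries it stood at 75.2, 73.3, 45.2, 35.1 and 38.3 CPM in gluten-free S1, S3, S5, S6 and S8, against 98.7, 122.4 and 31.2 CPM in control S1, S2 and S6. Each gluten-free plain library exceeded each control plain library, and control S6 was the lowest of the S libraries. The log2 fold change was 1.00 ± 0.19 within plain IDs (SE, adjusted p = 0.000518, edgeR) and -0.66 ± 0.39 within S IDs (SE, adjusted p = 0.913, edgeR). Gp6 also varied most over all libraries, by 7.46-fold between control 8 and control S2.

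Clec1b (ENSMUSG00000030159, chromosome 6, 129397297 to 129409335, plus strand) encodes CLEC-2, a lectin receptor that signals through the kinase SYK. Its levels were 45.1, 60.3, 58.2 and 44.20 CPM in gluten-free plain libraries 7 to 10, against a lowest of 16.7, a median of 27.4 and a highest of 44.17 CPM in control plain libraries. They were 83.4, 76.7, 52.6, 42.3 and 40.9 CPM in gluten-free S1, S3, S5, S6 and S8, against 102.0, 99.4 and 36.6 CPM in control S1, S2 and S6. The plain groups were separated only by the small gap between gluten-free 10 and control 5. The log2 fold changes were 0.91 ± 0.19 within plain IDs (SE, adjusted p = 0.0011, edgeR) and -0.43 ± 0.34 within S IDs (SE, adjusted p = 0.949, edgeR).

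Treml1 (ENSMUSG00000023993, chromosome 17, 48359916 to 48367176, plus strand) encodes TLT-1, which reaches the platelet surface on activation. It measured 66.5, 95.04, 97.2 and 71.6 CPM in gluten-free plain libraries 7 to 10, against a lowest of 20.1, a median of 39.9 and a highest of 69.1 CPM in control plain libraries. It measured 103.9, 99.4, 62.0, 58.0 and 52.5 CPM in gluten-free S1, S3, S5, S6 and S8, against 149, 134 and 49.5 CPM in control S1, S2 and S6. Gluten-free 7 lay below control 5, and the other plain libraries were separated by diet. The log2 fold change was 1.05 ± 0.23 within plain IDs (SE, adjusted p = 0.00231, edgeR) and -0.57 ± 0.34 within S IDs (SE, adjusted p = 0.914, edgeR).

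Set side by side, 4 of the 8 tested genes (Itgb3, Gp5, Gp6 and Clec1b) were higher in every gluten-free than in every control plain library, as were 6.83% of all genes tested. Without control 5 it was 8 of 8, against 7.81% of all genes. Among S libraries the gluten-free libraries lay below every control for 0 of 8, against 2.05% of all genes, and without control S6, which leaves 5 libraries against 2, for 8 of 8, against 9.45% of all genes. Control 5 and control S6 were the libraries through which these groups overlapped, so both counts of 8 of 8 are descriptions, not tests. The edgeR test still called 0 of 8 without control S6, where the median log2 fold change was -0.90. Without control S1 that median was -0.26 and without control S2 it was -0.35, so the size of the S difference rested on single control libraries.

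The difference between the ID forms was tested as an interaction, the gluten-free over control log2 fold change in S IDs minus that in plain IDs. It was called for 7 of the 8 tested receptor genes, all lower in S IDs, where 9.37% of all genes were called lower. Gp1ba had the largest interaction, -1.80 ± 0.41 (SE, adjusted p = 0.00471, edgeR), and Gp9 the smallest, -0.87 ± 0.36 (SE, adjusted p = 0.0769, edgeR), which was not called. The median over the 8 was -1.54, against -0.02 over all genes tested. Without control S1 the count fell to 4 of 8, with Itga2b, Clec1b and Treml1 no longer called, and without control 5, without control S6, or without control 5 and gluten-free S1 together, it was 8 of 8.

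When both ID forms were fitted together with the form as a term, 0 of the 8 receptor genes were called by edgeR for diet. Over all genes tested 0 were called (0%), 4559 had an unadjusted p under 0.05, and the smallest adjusted p was 0.0657. None of the 8 receptor genes had an unadjusted p under 0.05, and their log2 fold changes ran from 0.15 (Gp9) to 0.48 (Itga2b), with a median of 0.34. DESeq2 called 1557 genes and limma-voom called 1 in this comparison, with 0 receptor genes in either.

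**Figure D2:**
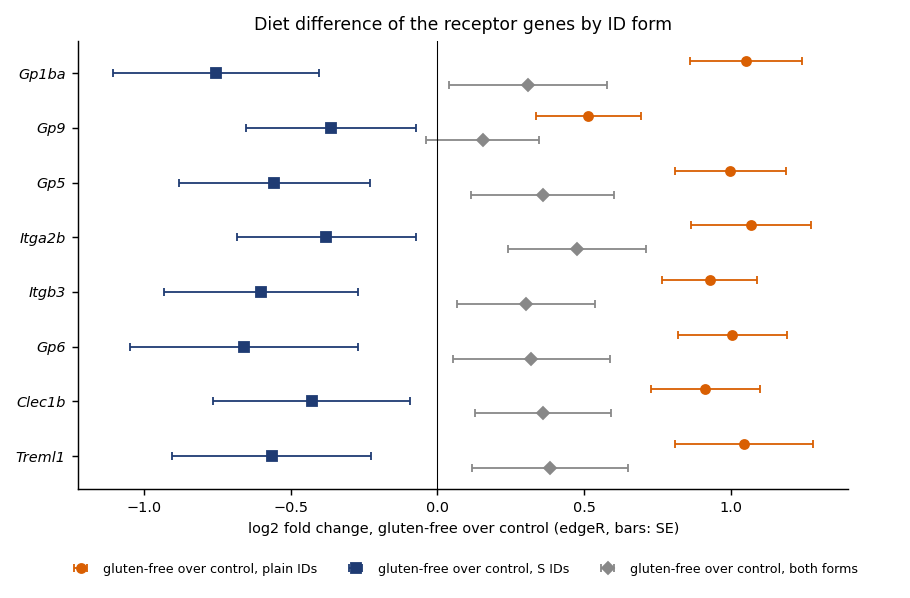
Gluten-free over control log2 fold change of the 8 tested receptor genes within plain IDs (circles), within S IDs (squares) and over both forms with the form as a term (diamonds), with bars of 1 SE from edgeR. Plain values lie between 0.51 and 1.07 and S values between -0.75 and -0.36, with the values over both forms between them.

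Within 1 diet, the ID forms were compared next, and the interaction is also the test of the difference between these comparisons. Among controls, 8 of 8 were called higher in S than in plain libraries, where 1.64% of all genes were called higher, with log2 fold changes from 1.03 ± 0.25 for Gp9 (SE, adjusted p = 0.0475, edgeR) to 1.71 ± 0.27 for Gp1ba (SE, adjusted p = 0.0104, edgeR). All 8 genes overlapped between these groups, since control S6 lay below control 5 for each of them, and 2.36% of all genes lay higher in every control S library. Without control S1, or without control S2, 0 of 8 receptor genes and 0 genes in all were called, so these calls rested on both of those libraries. The median log2 fold change of the receptor genes was then 1.22 or 1.27, against 1.46 with all control libraries. Without control 4 and gluten-free S1 together, 7 of 8 were called. Among gluten-free libraries 0 of 8 were called between S and plain, where 31.9% of all genes were called in either direction, and the log2 fold changes ran from -0.26 (Itga2b) to 0.13 (Clec1b). For each of the 8 genes the mean level was highest in control S and lowest in control plain libraries, with both gluten-free groups between them and not separated by the test.

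Per kilobase of gene length, averaged over the 20 libraries, the order of the levels was Gp9 with 77.9 ± 30.3, Itgb3 with 62.5 ± 30.8, Itga2b with 54.0 ± 24.7, Treml1 with 48.5 ± 25.1, Gp5 with 34.1 ± 16.6, Gp1ba with 15.6 ± 8.96, Clec1b with 9.44 ± 4.91 and Gp6 with 8.07 ± 4.68 CPM per kb (SD). The SD is the spread over libraries in which these genes rose and fell together, so it does not measure how firm the order is. Gp1bb stood at 0.0317 CPM per kb. All 8 tested genes were lowest in control 8 and highest in control S1 or control S2, and the highest library exceeded the lowest by 4.54-fold (Gp9) to 7.46-fold (Gp6). Across the 20 libraries Pearson's r between the log2 CPM of any pair of the 8 genes ran from 0.914 to 0.994 over 28 pairs. It ran from 0.891 to 0.997 over the 12 plain libraries and from 0.905 to 0.995 over the 8 S libraries, as a description of genes counted in the same libraries.

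Ratios of counts between receptor genes overlapped between the diets in both ID forms for 3 of 4 pairs, and in neither for Gp9 over Gp1ba. The ratio of Gp9 to Gp1ba was 1.46 ± 0.15 in gluten-free plain libraries (SD, n = 4), against 2.11 ± 0.27 in control plain libraries (SD, n = 8), and the ranges, 1.34 to 1.66 and 1.69 to 2.54, did not overlap. In S libraries it was 1.79 ± 0.38 in gluten-free (SD, n = 5), against 1.34 ± 0.11 in control (SD, n = 3), and the ranges, 1.48 to 2.37 and 1.27 to 1.47, did not overlap either, in the opposite direction. Gp9 made up 5.84% of the summed CPM of the receptor genes in gluten-free plain libraries, against 8.02% in control plain libraries. In S libraries it made up 7.14% in gluten-free (6.23% to 8.67%), against 6.30% in control (5.87% to 6.61%), and these ranges overlapped. The ratio of Gp5 to Gp1ba, another pair of the same complex, was 1.89 ± 0.12 in gluten-free plain against 1.94 ± 0.20 in control plain libraries, and 1.80 ± 0.14 in gluten-free S against 1.58 ± 0.18 in control S libraries (SD). The 2 integrin chains had a ratio, Itga2b to Itgb3, of 0.878 ± 0.030 in gluten-free plain against 0.789 ± 0.093 in control plain libraries, and 0.823 ± 0.071 in gluten-free S against 0.720 ± 0.115 in control S libraries (SD). Gp6 and Clec1b encode separate receptors, not subunits of 1 complex. Their ratio was 1.04 ± 0.06 in gluten-free plain against 0.989 ± 0.151 in control plain libraries (SD). It was 0.897 ± 0.052 in gluten-free S against 1.02 ± 0.19 in control S libraries (SD). The ratio of Gp6 to Itga2b, also of separate receptors, was computed too and overlapped between the diets in both ID forms. These pairs were chosen after the counts were seen and were not tested. The share of other gene pairs whose ratios separate in this way was not computed.

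**Figure D3:**
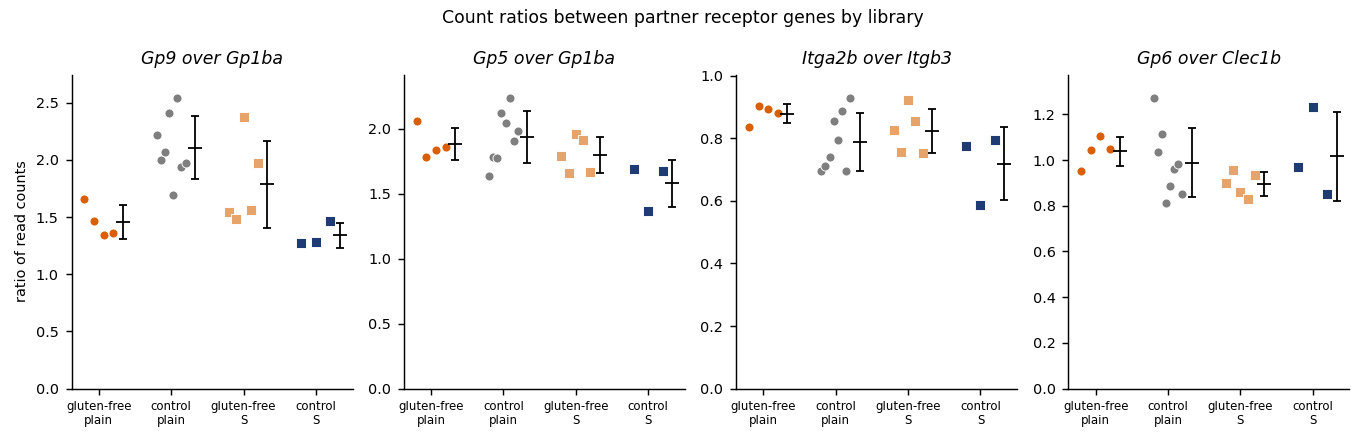
Ratios of read counts between 4 pairs of receptor genes (vertical axes, from 0), with 1 point a library in gluten-free plain, control plain, gluten-free S and control S libraries, and the mean with its SD. Gp6 and Clec1b encode separate receptors. Gp9 over Gp1ba is lower in gluten-free plain (up to 1.66) than in control plain libraries (from 1.69) and higher in gluten-free S (from 1.48) than in control S libraries (up to 1.47), and the other 3 ratios overlap between the diets.

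The genes around these receptors were read from lists chosen by function. Of 18 other platelet surface receptors, 14 were called higher and 1 lower in gluten-free plain libraries, where 17.5% and 22.1% of all genes were called in those directions, with a median log2 fold change of 0.71. The most abundant were Itgb1, the β1 integrin chain found on most cells, with -0.09 ± 0.08 (SE, adjusted p = 0.39, edgeR), Cd36, a scavenger receptor shared with macrophages, which fell by 0.41, Itga6, the laminin-binding α6 chain, which rose by 0.78, and Cd9, a tetraspanin, which rose by 0.89 on the log2 scale. Of 14 genes that carry the receptors' signals, 11 were called higher and 0 lower, with a median of 0.46. Among them talin 1 (Tln1), which opens the integrin from inside the cell, rose by 0.37, Rap1b, the small GTPase upstream of talin, by 0.49, its exchange factor Rasgrp2 by 0.65 and the kinase Syk by 0.42, all of which leukocytes also express.

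Of 11 ligand genes 8 could be tested, and the fibrinogen chains Fga, Fgb and Fgg did not pass the filter on low counts. Of the 8, 4 were called higher and 0 lower in gluten-free plain libraries, Thbs1 (thrombospondin 1, also stored in platelets) by 0.99 ± 0.15 (SE, adjusted p = 0.000117, edgeR). The collagen genes Col3a1 with 0.27, Col4a1 with 0.11 and Col1a2 with 0.31 on the log2 scale were not called. All 11 granule and cytoskeleton genes were called higher, with a median of 0.95, among them Ppbp and Pf4, platelet chemokines, by 1.01 and 0.84, Clu, clusterin, by 0.88 and Plek, pleckstrin, by 0.83.

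The megakaryocyte transcription factors split, with 4 of 10 called higher and 5 lower in gluten-free plain libraries and a median log2 fold change of -0.39. The 4 most abundant fell, Tal1 by 1.14, Zfpm1 by 0.96, Gata1 by 0.96 and Nfe2 by 0.93 on the log2 scale, and all 4 are known to work in red cell precursors as well. Within S IDs 0 genes were called in any of these lists. In control S over control plain libraries, 14 of the 18 other receptors, 4 of 14 signalling genes and 2 of 8 ligands were called higher. So were 9 of 11 granule and cytoskeleton genes and 1 of 10 transcription factors, and 0 genes of these lists were called lower. Of all genes, 1.64% were called higher and 0.517% lower. Without control S1, or without control S2, 0 genes in all were called.

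Other cell types also differed between the plain groups. The 10 erythroid markers summed to 51612 to 92403 CPM in gluten-free plain libraries, against 74844 to 170635 CPM in control plain libraries, and 10 of 10 were called lower. The 8 neutrophil markers summed to 2867 to 7483 CPM in gluten-free plain libraries, against 701 to 2202 CPM in control plain libraries, and 8 of 8 were called higher. T cell markers, 8 of 8 called higher, summed to 609 to 684 CPM in gluten-free plain libraries, against 315 to 525 CPM in control plain libraries. In a plain ID fit with the mean log2 CPM of the erythroid markers as a covariate, 8 of 8 receptor genes were called higher. Their median log2 fold change was 2.14, against 1.00 without the covariate, and the genes called in all were 819, against 7266. The erythroid markers themselves differed between these diet groups, so this fit cannot separate them from diet. Over both ID forms, the fit with this covariate called 0 receptor genes, with a median of 0.199, against 0.34 without it. Endothelial markers, 2 of 6 called higher, summed to 317 to 362 CPM in gluten-free plain libraries, against 267 to 362 CPM in control plain libraries. Mesothelial markers, 2 of 4 called higher, summed to 73.5 to 159 CPM in gluten-free plain libraries, against 38.9 to 127 CPM in control plain libraries. Of the markers of B cells 1 of 5, of progenitors 1 of 5, of mast cells and basophils 2 of 4 tested and of red pulp macrophages 0 of 5 were called higher, and 0 lower. In the plain ID fit without a covariate, 17.5% of all genes were called higher and 22.1% lower, so 1 of 5 lies near that share. Every gene of these lists had counts in at least 1 of the 20 libraries. In control S over control plain libraries, 0 of 10 erythroid, 0 of 8 neutrophil, 0 of 8 T cell and 1 of 6 endothelial markers were called higher. Of all genes, 1.64% were called higher there. The part of the other markers in the receptor gene differences was not tested, and that of the erythroid markers could not be separated from diet.

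The erythroid sum ran from 95921 to 162527 CPM in gluten-free S libraries, against 186913, 176591 and 88841 CPM in control S1, S2 and S6. Control S1 and S2 thus had the highest sums of both the erythroid markers and the receptor genes, and control S6 the lowest of the S libraries for both. Among gluten-free S libraries the order of these sums differed. S5 and S8, with 162527 and 150019 CPM of erythroid markers, had receptor sums of 948 and 832 CPM. S3, with 140084 CPM, had 1487 CPM. T cell markers summed to 321, 293 and 812 CPM in control S1, S2 and S6. In that order, B cell markers summed to 1066, 866 and 2157 CPM and neutrophil markers to 2976, 3216 and 1534 CPM. The summed CPM of the receptor genes was 1209 ± 243 in gluten-free plain libraries (SD, n = 4), against 621 ± 174 in control plain libraries (SD, n = 8). It was 1126 ± 344 in gluten-free S libraries (SD, n = 5), against 2113, 1950.2 and 761 in control S1, S2 and S6.

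The receptor genes were also set against the other megakaryocyte and platelet markers. By library, the ratio of the sums ran from 0.563 in control S2 to 0.815 in control 8. Control 8 had the lowest receptor sum, 390 CPM, and control S2 had 1950 CPM. The sum of the receptor genes over that of the 8 other markers was 0.700 ± 0.021 in gluten-free plain libraries (SD, n = 4), against 0.713 ± 0.067 in control plain libraries (SD, n = 8). It was 0.676 ± 0.041 in gluten-free S libraries (SD, n = 5), against 0.641 ± 0.076 in control S libraries (SD, n = 3). The other markers were called higher, 8 of 8, in gluten-free plain libraries with a median log2 fold change of 0.97.

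**Figure D4:**
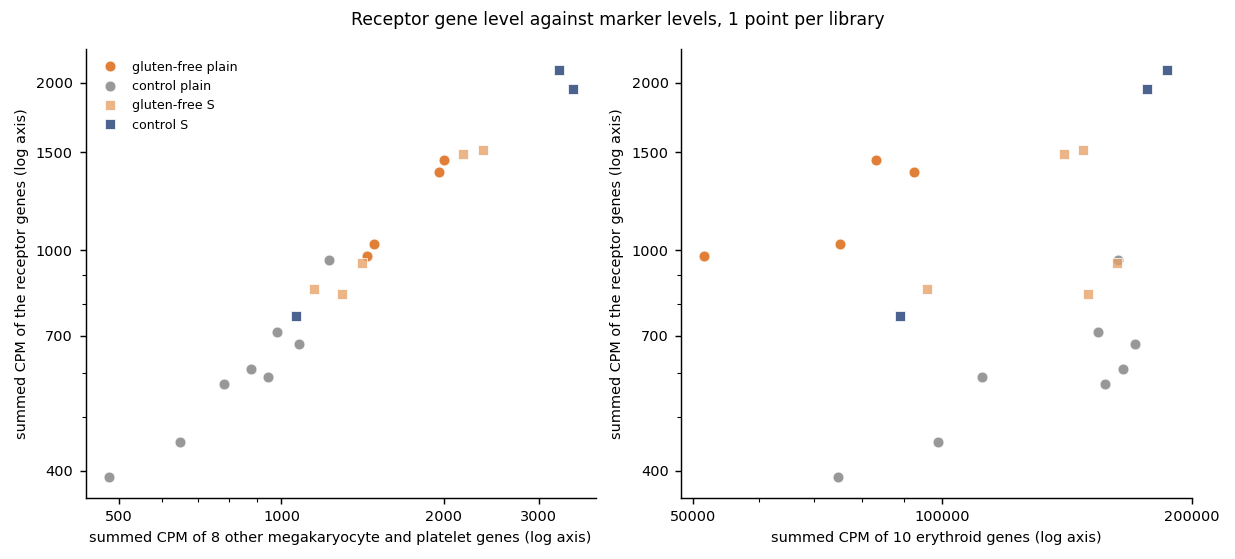
Summed CPM of the receptor genes (vertical log axes) against the summed CPM of 8 other megakaryocyte and platelet genes (left, log axis) and of 10 erythroid genes (right, log axis), with 1 point a library. On the left the libraries fall near 1 line, with ratios from 0.563 to 0.815. On the right the gluten-free plain libraries lie at 51612 to 92403 CPM of erythroid genes, with receptor sums of 976 to 1454 CPM. The only control plain library within that erythroid range, control 8 (74844 CPM), had the lowest receptor sum of all libraries, 390 CPM.

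Among the 10 protein-coding genes, of 13099 with a mean of at least 1 CPM, whose log2 CPM lay closest to the mean of the receptor genes' standardised values over the 20 libraries, were Alox12, Kalrn, Ly6g6f, Ppbp, Pf4, Smim3, Slc6a4, Gnaz and Thbs1. Pearson's r of the 10 ran from 0.983 (Thbs1) to 0.991 (Alox12). Within the 12 plain libraries it ran from 0.965 (Slc6a4) to 0.992 (Ly6g6f), and within the 8 S libraries from 0.979 (Thbs1) to 0.999 (Slc6a4).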

How the data were processed

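The authors deposited 1 table of unnormalized whole-number read counts for each gene in 20 libraries of total RNA from whole spleen. Per the submitters' processing notes, CASAVA, HISAT2 2.0.5, GRCm38 (mm10) and featureCounts 1.5.0 were used. The strand setting, annotation release and treatment of reads with several matches are not given in the sources used here. The coordinates of the 9 receptor genes equal those of GENCODE M21, which gave exon overlaps, and those of other genes were not compared. Promoters came from RefSeq.

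Groups follow the diet and ID form of the labels. Counts were fitted with edgeR 4.0.16 under R 4.3.3 (two-sided quasi-likelihood test, TMM factors 0.864 to 1.23, 18362 genes left by the default expression filter over the 4 groups), with p-values adjusted over all tested genes by Benjamini-Hochberg and called under 0.05. The SE of a fold change was obtained from its F statistic. Log2 CPM used a prior count of 2. The ID form was a term in the fit over all libraries, and fits within a form or diet had no covariate. The fits were tested on simulated data with known changes. That simulation gave every gene the same spread and held no outlying library, so it does not cover calls that rest on single libraries.

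The receptor genes, gene lists and tests were chosen with earlier results of these data known. All 9 receptor genes are named, and of each list at most the 4 genes with the highest mean CPM. Likeness was ranked by Pearson's r. Of the genes in the lists, 1 is not reported here by name.

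Alternatives were RLE or library total scaling, no filter, DESeq2 1.42.0, voom of limma 3.58.1, each library left out, gluten-free S1 left out together with control 5 or, added after seeing the data, with control 4, a joint fit of the 4 groups, no ID form term, an erythroid covariate and a replicate block. Library totals were 13626021 to 24268237 counts, and all replicate pairs of a group differed beyond counting noise (chi-square per degree of freedom 6.01 to 100).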

Additional observations from a re-analysis of the deposited data

Results flagged for a closer look

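The gluten-free over control log2 fold change differed between S and plain IDs for 7 of the 8 tested receptor genes in edgeR's interaction test. As S minus plain, the differences were -1.80 for Gp1ba, -1.66 for Gp6, -1.60 for Treml1, -1.55 for Gp5, -1.52 for Itgb3, -1.44 for Itga2b and -1.33 for Clec1b, with adjusted p from 0.00471 (Gp1ba) to 0.0178 (Clec1b). Each of the 7 genes was higher in gluten-free than in control libraries with plain IDs, and their values with S IDs were below 0 without being called. For the 8 genes in the gluten-free plain, control plain and gluten-free S groups, 24 sets of 4 to 8 values, no library stood apart from the others by Dixon's test, where chance marks about 1 in 20. The 3 control S libraries were too few for that test.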

How the results depend on the processing

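In the 4 diet fits no tested receptor gene changed direction under the alternatives. Leaving out 1 library at a time, the receptor genes called ran from 4 (without control S1) to 8 for the diet by ID form interaction, from 0 (without control S1 or without control S2) to 8 for S over plain among controls, and from 7 to 8 for diet within plain IDs. They stayed at 0 for diet over both forms, for diet within S IDs and for S over plain among gluten-free libraries. For S over plain among controls, RLE scaling called 7, limma-voom 6, and the fit without control 4 and gluten-free S1 together 7. Gp9 joined the interaction calls under library total scaling (adjusted p = 0.0124), and without control 5 (adjusted p = 0.0481) or control S6 (adjusted p = 0.0125), and Clec1b left them without control S2 (adjusted p = 0.0565). Library total scaling moved the median of all genes within plain IDs to 0.31 on the log2 scale and that of the receptor genes to 1.29. Over all genes, the diet over both forms gave 0 calls by edgeR, 1557 by DESeq2, 3718 without control S6 and 2923 without gluten-free S8, and S over plain among controls gave 396 by edgeR and 910 by DESeq2. Diet within S IDs gave 0 genes by edgeR, with 959 at an unadjusted p under 0.05, 4 by DESeq2 and 0 by limma-voom. The cause of these shifts was not tested.

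A fit with the replicate block, over the 8 libraries whose 4 IDs (7, 8, S1 and S6) occur under both diets, called 0 receptor genes. Same-numbered libraries did not deviate together throughout (correlations of -0.17, -0.20, 0.09 and 0.38), so the IDs were not read as pairs. With 3 control S libraries, 1 of them apart from the others, the S comparisons are the least certain, and Gp1bb is too sparsely counted for any comparison.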
